A study of Mus musculus with 29 samples.

Results

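Binding of Atoh1, Pou4f3 and Gfi1 was examined around 10 neuronal marker genes of the mouse, Tubb3, Dcx, Elavl3, Elavl4, Stmn2, Mapt, Map2, Ncam1, Nefl and Nefm. The genes are a list of names with no threshold on binding, and they are 10 of the 22367 protein-coding genes of the annotation. A peak summit counted as near a gene when it lay in the gene body or within 50 kb of it in the mm9 genome. The windows of Nefl and Nefm overlap, so the 10 genes gave 9 regions with a summed length of 1.93 Mb. Chromatin immunoprecipitation with sequencing (ChIP-seq) had supplied the peak lists, and this assay reports where a protein sits on DNA and not whether a gene is expressed. That these genes mark neurons was therefore not checked on expression here.

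Neurons are recognised by proteins of their cytoskeleton, of RNA binding and of the cell surface, and genes for such proteins make up this list. Atoh1 is a proneural transcription factor of the basic helix-loop-helix class that binds E-boxes and specifies hair cells in the inner ear as well as several kinds of neuron. Pou4f3 is a POU-homeodomain factor of hair cells, closely related to factors of sensory neurons. Gfi1 is a zinc-finger factor, best known as a repressor, and mouse hair cells that lack it show neuronal genes. The question put to the lists was how Atoh1 occupies neuronal genes with Gfi1 and without it.

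The study made embryonic stem cell lines from the A2loxCre parent, in which doxycycline switches on 1 cassette that holds the factors and ends in a Venus reporter. Atoh1 carried a FLAG tag and Pou4f3 a MYC tag, and these tags were precipitated, whereas Gfi1 was precipitated with an antibody against the protein itself. The lines were iAtoh1 (Atoh1 alone), iG+A (Gfi1 and Atoh1), iP+A (Pou4f3 and Atoh1), iGPA (all 3 factors), iPou4f3 (Pou4f3 alone) and iG+P (Gfi1 and Pou4f3). All were grown as embryoid bodies, clumps of stem cells that differentiate in suspension, received 2 µg/ml doxycycline for the last 48 h and were harvested on day 6, so every list comes from induced cells. Replicates of a line are different clones in the series text on RNA samples, and for ChIP this is not given in the sources used here. Every line with Atoh1 was mapped for Atoh1 and every line with Pou4f3 for Pou4f3, whereas Gfi1 was mapped in iGPA. Each ChIP had 2 libraries except that of Gfi1, which had 1, and 12 input libraries brought the total to 29. The replicates were merged before peaks were called, so a list holds 1 value per peak and no spread between replicates. Intervals below are exact 95% intervals for counting error alone, and sites beside each other are not independent. No difference between lists was tested, and differences in list length and depth cannot be told apart from differences between lines.

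The lists held 15568 kept peaks for Atoh1 in iAtoh1 and 20504 in iG+A, then 18949 in iP+A and 26231 in iGPA. For Pou4f3 they held 22433 in iPou4f3 and 32632 in iG+P, then 17082 in iP+A and 18751 in iGPA, and the Gfi1 list held 3012. Kept peaks are those named in the authors' summit lists, and between 14.1% and 35.5% of the called peaks of a list were left out by a filter that is not stated. Read totals were not used here. The most frequent background under a peak, recovered from the peak caller's values, was 5.87 to 8.30 fragments in the Atoh1 and Pou4f3 lists and 3.55 fragments for Gfi1. Among the Atoh1 lists it was lowest in iG+A at 6.49, beside 7.19 in iAtoh1, 8.30 in iP+A and 7.13 in iGPA.

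Around the 10 genes, summits of the 4 Atoh1 lists joined into 35 Atoh1 sites of 45175 in the genome, and those of the 4 Pou4f3 lists into 42 Pou4f3 sites of 48289. A site is a stretch where windows of 300 bp around summits share at least 1 bp. Each is named here by its gene and by its distance from the annotated start in the direction of transcription. The DNA under the sites that the results turn on is shown first, as 250 bp of the plus strand of mm9 written 5′ to 3′. In the Atoh1 sequences, capitals mark the E-box cores CAGCTG and CAGATG, the latter read as CATCTG on the other strand. The intronic Tubb3 +1.6 kb site (chr8:125936821-125937070) was the single site in all 4 Atoh1 lists, and it also held a Gfi1 peak. Map2 +53.1 kb (chr1:66274856-66275105) and Map2 +91.4 kb (chr1:66313084-66313333), both intronic, held peaks of all 3 factors in iGPA, and capitals in the first also mark a Pou4f match. Map2 +292.9 kb (chr1:66514656-66514905), which lies just upstream of the neighbouring gene Unc80, was in both Atoh1 lists with Gfi1 and in neither without it. The intronic Mapt +89.4 kb site (chr11:104181969-104182218) showed the reverse.
Tubb3 +1.6 kb: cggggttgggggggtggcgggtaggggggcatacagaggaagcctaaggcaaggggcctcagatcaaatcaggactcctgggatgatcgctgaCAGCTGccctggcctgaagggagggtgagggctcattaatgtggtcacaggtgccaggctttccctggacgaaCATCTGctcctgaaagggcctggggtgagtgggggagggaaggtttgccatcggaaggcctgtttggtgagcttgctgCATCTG
Map2 +53.1 kb: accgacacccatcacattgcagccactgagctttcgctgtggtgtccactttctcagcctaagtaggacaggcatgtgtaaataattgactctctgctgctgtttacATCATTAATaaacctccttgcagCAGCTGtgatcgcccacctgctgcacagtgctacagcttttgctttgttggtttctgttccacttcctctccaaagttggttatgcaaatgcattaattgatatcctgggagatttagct
Map2 +91.4 kb: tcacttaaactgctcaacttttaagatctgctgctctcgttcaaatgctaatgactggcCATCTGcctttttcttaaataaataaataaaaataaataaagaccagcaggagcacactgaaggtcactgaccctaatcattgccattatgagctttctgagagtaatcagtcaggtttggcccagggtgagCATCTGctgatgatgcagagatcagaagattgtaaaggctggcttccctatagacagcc
Map2 +292.9 kb: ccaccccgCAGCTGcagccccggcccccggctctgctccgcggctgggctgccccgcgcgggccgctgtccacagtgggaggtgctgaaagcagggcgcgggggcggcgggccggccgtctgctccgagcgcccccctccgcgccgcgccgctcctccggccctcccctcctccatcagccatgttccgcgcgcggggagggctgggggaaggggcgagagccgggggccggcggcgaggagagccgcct
Mapt +89.4 kb: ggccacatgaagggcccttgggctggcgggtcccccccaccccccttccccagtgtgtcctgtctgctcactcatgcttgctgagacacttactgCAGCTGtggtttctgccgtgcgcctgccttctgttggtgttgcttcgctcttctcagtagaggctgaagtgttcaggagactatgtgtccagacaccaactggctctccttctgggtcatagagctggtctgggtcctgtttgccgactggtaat

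For Pou4f3, the sequences shown come from sites in all 4 Pou4f3 lists, and capitals mark matches to ATAATTAAT with at most 1 mismatch on either strand, the Pou4f pattern. Nefl/Nefm -45.0 kb (chr14:68656842-68657091) is intergenic and Ncam1 +83.9 kb (chr9:49523048-49523297) intronic.
Nefl/Nefm -45.0 kb: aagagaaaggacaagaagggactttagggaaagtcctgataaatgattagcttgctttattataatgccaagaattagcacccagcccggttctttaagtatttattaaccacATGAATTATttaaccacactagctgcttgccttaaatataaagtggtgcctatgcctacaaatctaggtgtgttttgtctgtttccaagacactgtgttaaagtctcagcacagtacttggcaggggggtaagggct
Ncam1 +83.9 kb: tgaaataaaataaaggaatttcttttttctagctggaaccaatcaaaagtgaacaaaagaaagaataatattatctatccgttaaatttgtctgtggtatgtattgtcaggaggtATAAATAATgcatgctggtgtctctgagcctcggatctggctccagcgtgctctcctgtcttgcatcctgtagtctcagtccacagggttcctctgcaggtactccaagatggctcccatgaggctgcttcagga

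Atoh1 summits near the neuronal genes were few in the lines without Pou4f3 and more frequent in the lines with it. There were 7 in iAtoh1 and 4 in iG+A, then 16 in iP+A and 27 in iGPA. Per Mb of the regions this was 3.62 (1.46 to 7.46) in iAtoh1 beside 5.86 over the genome, and 2.07 (0.564 to 5.30) in iG+A beside 7.72. In iP+A the density was 8.28 per Mb (4.73 to 13.4) beside 7.14, and in iGPA 14.0 per Mb (9.21 to 20.3) beside 9.88. The density around the genes was therefore 0.618 times the genome's in iAtoh1 and 0.268 times in iG+A, then 1.16 times in iP+A and 1.41 times in iGPA. The genome's density lay inside the interval in 3 of the 4 Atoh1 lists and above it in iG+A.

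**Figure D1:**
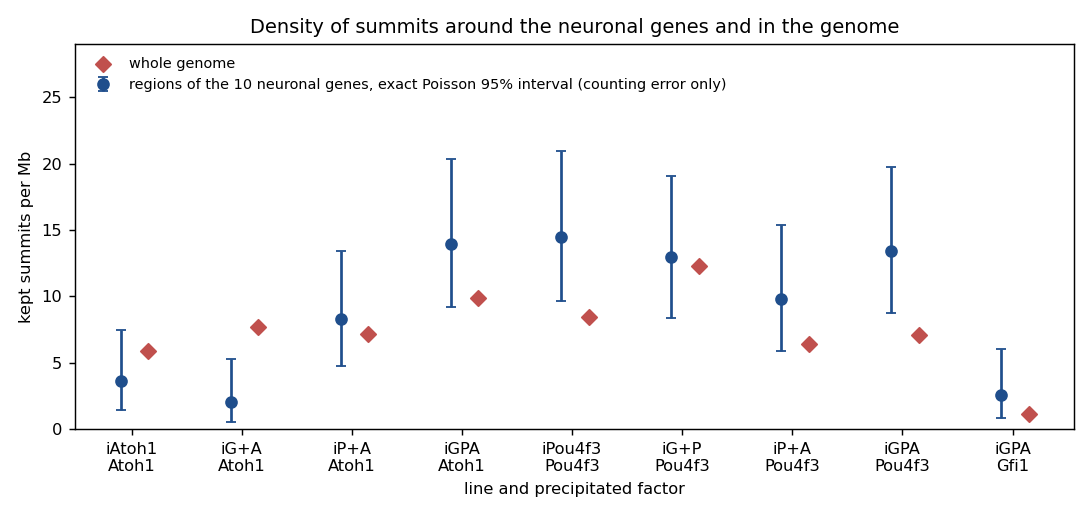
Kept summits per Mb (vertical axis) for each line and precipitated factor (horizontal axis), in the regions of the 10 neuronal genes (circles, with exact Poisson 95% intervals for counting error) and over the whole genome (diamonds). The iG+A Atoh1 circle at 2.07 lies below its genome value of 7.72, and the iGPA Atoh1 circle at 14.0 lies above its genome value of 9.88.

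The difference between the lists with and without Gfi1 had no single direction. Without Pou4f3, the list with Gfi1 held 3 summits fewer near the genes than the list without it, although iG+A is the longer list. With Pou4f3, the list with Gfi1 held 11 more. The first difference rests on few summits and on how peaks were kept. With every called peak, iG+A had 8 summits and iAtoh1 still 7, and within 100 kb of the genes iG+A had 13 and iAtoh1 12. At the length of the shortest Atoh1 list, 15568 peaks, iP+A had 13 summits and iGPA 17. Relative to the genome, iAtoh1 and iG+A stayed below 1 at 10 and 100 kb, in gene bodies, with all called peaks, at a −log10 p of at least 10 and at equal length, with ratios of 0.290 to 0.844 and of 0.214 to 0.594. Under the same settings the ratio in iGPA was 1.21 to 1.84, and in iP+A it was 0.818 to 1.5.

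Of the 10 genes, 4 had an Atoh1 summit in iAtoh1 and 5 in iG+A, where 1 summit counted for both Nefl and Nefm, then 5 in iP+A and 6 in iGPA. The same rule was met by 53.1% of protein-coding genes in iAtoh1 and 65.7% in iG+A, then 62.7% in iP+A and 72.2% in iGPA, although the median body of the 10 genes is 64.8 kb and that of all protein-coding genes 15.4 kb. With every called peak, iG+A and iP+A each had 6 of the 10. These counts lie within a few genes of the background and are not read as a result about the 10 genes. For Pou4f3, 9 genes had a summit in iPou4f3 (72.8% of protein-coding genes) and 9 in iG+P (76.6%). In iP+A there were 9 (58.8%) and in iGPA 8 (63.2%). Nefl and Nefm share summits, and in gene bodies alone the counts were 5, 5, 4 and 4 in that order. The Pou4f3 counts are not read as a result about the 10 genes either. Gfi1 was found at 4 of the 10, against 23.2% of protein-coding genes.

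**Figure D2:**
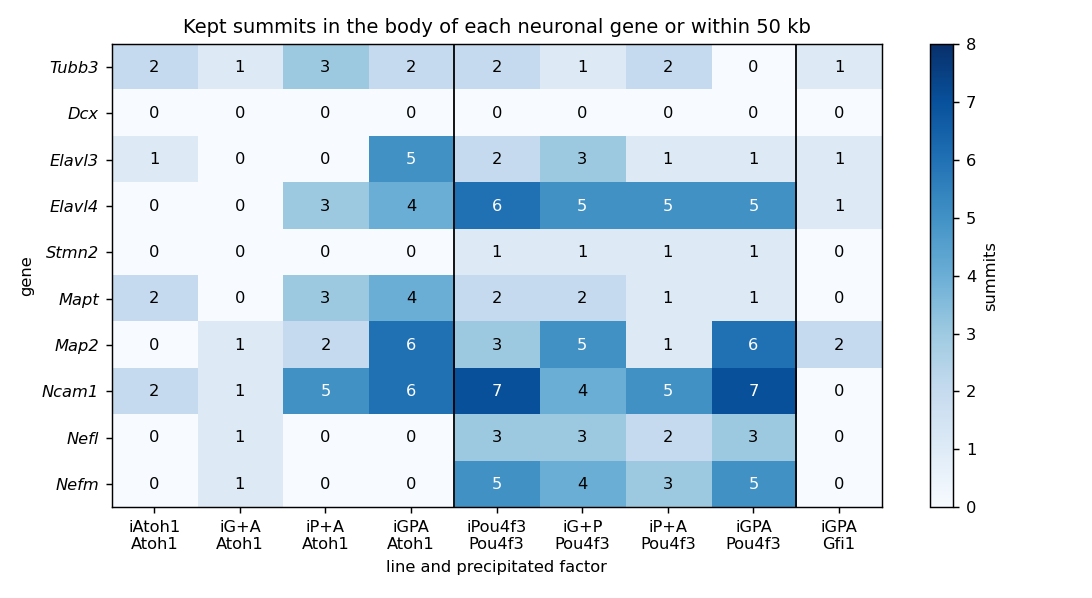
Number of kept summits in the body of each gene or within 50 kb (cell value and shade) for the 10 genes (rows) in the 9 lists (columns, 4 for Atoh1, 4 for Pou4f3 and 1 for Gfi1). Atoh1 summits gather in the iP+A and iGPA columns, Dcx has 0 throughout, and Stmn2, Nefl and Nefm have Pou4f3 summits with few or no Atoh1 summits. The summits of Nefl and Nefm overlap.

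Tubb3, which encodes the class III beta-tubulin of neuronal microtubules, held the 1 Atoh1 site found in all 4 lists. Its Atoh1 summits numbered 2 in iAtoh1 and 1 in iG+A, then 3 in iP+A and 2 in iGPA. Fold enrichment divides the fragments at a summit by the peak caller's background, after 1 is added to each. At the +1.6 kb site the fold enrichment was 6.47 (4.87 to 8.45) in iAtoh1 and 3.60 (2.40 to 5.22) in iG+A. It was 8.71 (6.93 to 10.8) in iP+A and 11.3 (9.14 to 13.9) in iGPA. The iG+A peak was the lowest of the 4, and its interval met that of iAtoh1 but not those of iP+A and iGPA. Fold enrichment depends on the depth of a list and a rank on its length and filter, so neither measures a change between lines. In rank the peak stood at the 96.3rd percentile of the iAtoh1 list, the 98.0th of iP+A, the 97.2nd of iGPA and the 65.1st of iG+A. Gfi1 at the same place had a fold enrichment of 5.50 (3.60 to 8.07) from 24 fragments. No Pou4f3 list held a peak there. The other kept Atoh1 peaks near Tubb3 were weak, at 2.71 to 3.23 fold, and lay at -2.1, -1.1 and +31.9 kb. The first of these places are in an untranslated region of Mc1r and +31.9 kb in one of Def8, so their link to Tubb3 is distance alone. At +31.9 kb iGPA also had a called Atoh1 peak that was not kept, at 3.20 fold.

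**Figure D3:**
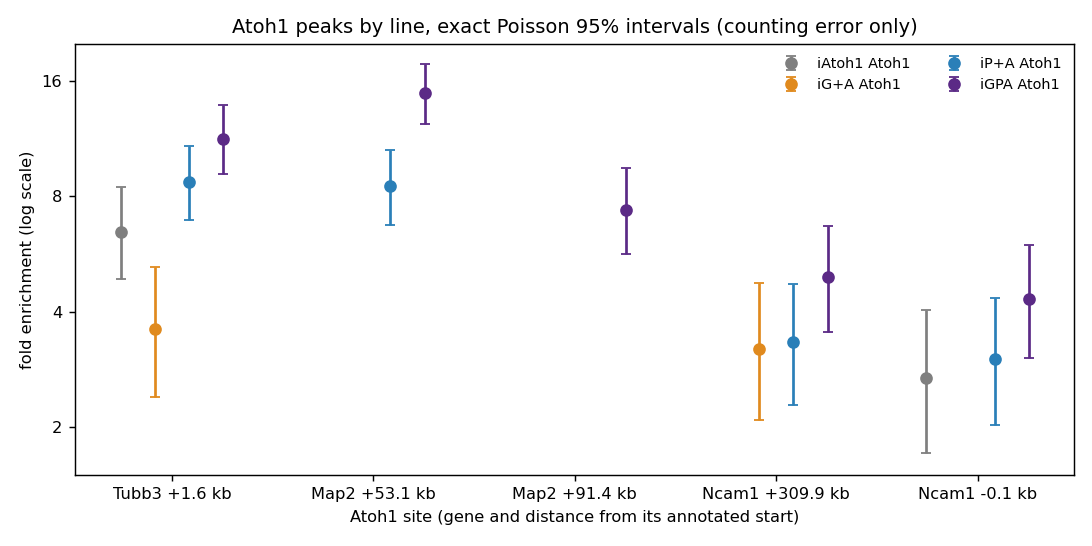
Fold enrichment on a log scale (vertical axis) at 5 Atoh1 sites (horizontal axis) in the 4 Atoh1 lists, with exact Poisson 95% intervals for counting error, and no point where the list has no kept peak. Tubb3 +1.6 kb has a point in every list with iG+A lowest at 3.60, and Map2 +53.1 kb has points in iP+A at 8.50 and iGPA at 14.9.

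Map2, a dendritic microtubule-associated protein, had 0 Atoh1 summits in iAtoh1 and 1 in iG+A, then 2 in iP+A and 6 in iGPA. The strongest Atoh1 peak near any of the 10 genes was the intronic +53.1 kb site in iGPA, with a fold enrichment of 14.9 (12.4 to 17.8) at the 98.8th percentile. In iP+A it was 8.50 (6.74 to 10.6) at the 97.8th percentile, and neither iAtoh1 nor iG+A had a peak. Pou4f3 sat at the same place at 2.85 fold in iG+P, at 5.21 fold in iP+A and at 9.17 fold in iGPA, with no peak in iPou4f3, and Gfi1 at 4.68. Thus every list of a line with both Atoh1 and Pou4f3 held a peak there, and the intervals of the iP+A and iGPA Atoh1 peaks did not overlap. Map2 +91.4 kb had peaks in iGPA only, of Atoh1 at 7.38 (5.65 to 9.49), Pou4f3 at 3.50 (2.27 to 5.17) and Gfi1 at 9.02 (6.50 to 12.2). That was the strongest Gfi1 peak near the genes. Map2 +292.9 kb held Atoh1 at 4.14 fold (2.84 to 5.85) in iG+A and 3.94 (2.72 to 5.54) in iGPA, and lies at -160 bp from a start of Unc80, so its link to Map2 is distance alone. The remaining Map2 sites were at 2.69 to 4.92 fold, in iGPA or in iGPA and iP+A.

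Mapt encodes tau, an axonal microtubule-associated protein. It had 2 Atoh1 summits in iAtoh1 and 0 in iG+A, then 3 in iP+A and 4 in iGPA. All were modest, and the highest was Mapt +40.8 kb at 4.06 (2.82 to 5.68) in iGPA alone. Mapt +89.4 kb, present in both lists without Gfi1, had 2.81 (1.81 to 4.19) in iAtoh1 and 2.80 (1.85 to 4.08) in iP+A. These values lay at the 23.9th and 27.3rd percentiles, in the lower part of their lists, and whether depth accounts for the absence of this site from iG+A and iGPA was not tested. A peak at the promoter, Mapt -0.4 kb, was listed in iP+A at 2.58 and in iGPA at 2.83.

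Elavl3 and Elavl4 encode the neuronal RNA-binding proteins HuC and HuD. Elavl3 had 1 Atoh1 summit in iAtoh1 and 0 in iG+A, then 0 in iP+A and 5 in iGPA. The highest, Elavl3 +16.4 kb, reached 4.80 (3.43 to 6.54). These counts depend on which called peaks were kept. The authors left out 3 called Atoh1 peaks near Elavl3 in iG+A, at 3.07 to 3.47 fold, and 1 in iP+A at 3.01. At Elavl3 +29.9 kb the kept peaks were Atoh1 in iGPA at 3.57, Gfi1 in iGPA at 6.16, and Pou4f3 in iPou4f3 at 4.75 and in iG+P at 3.94. Called peaks that were not kept lay at the same place in 4 further lists, at 3.01 to 3.50 fold. Elavl4 had 0 Atoh1 summits in iAtoh1 and 0 in iG+A, then 3 in iP+A and 4 in iGPA. Its strongest, Elavl4 +89.7 kb, stood at 3.55 (2.46 to 4.97) in iP+A and 3.45 (2.31 to 4.96) in iGPA, with Pou4f3 at 6.12 in iGPA. Elavl4 +0.3 kb, close to the annotated start of the gene, had Atoh1 at 2.71 and Gfi1 at 4.62 in iGPA. The summit of that Gfi1 peak lay at +0.1 kb.

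Ncam1, the neural cell adhesion molecule, had 2 Atoh1 summits in iAtoh1 and 1 in iG+A, then 5 in iP+A and 6 in iGPA. Its strongest Atoh1 site, Ncam1 +309.9 kb, lies past the end of the gene near Ttc12 and had 3.20 (2.08 to 4.74) in iG+A, 3.33 (2.28 to 4.71) in iP+A and 4.92 (3.54 to 6.68) in iGPA. These 3 intervals overlapped. At the promoter, Ncam1 -0.1 kb had 2.69 in iAtoh1, 3.01 in iP+A and 4.31 in iGPA, and Ncam1 +1.4 kb had 2.81, 3.66 and 3.57 in the same lists. Neither was listed in iG+A.

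The remaining genes held little or no Atoh1. Nefl and Nefm, the light and medium neurofilament chains, shared 1 summit, Nefl/Nefm +18.3 kb, which was in iG+A alone at 2.94 (1.87 to 4.42). Stmn2, a tubulin-binding phosphoprotein of growing axons, had 0 Atoh1 summits in all 4 lists. Dcx, the doublecortin of migrating neurons, had 0 summits in all 9 lists, kept or left out, within a region of 177 kb. Of all protein-coding genes, 81.7% had an Atoh1 summit in at least 1 list, so some genes without one are found in any such set. The absence of Atoh1 at Stmn2 and Dcx is not read as a result about them.

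**Figure D4:**
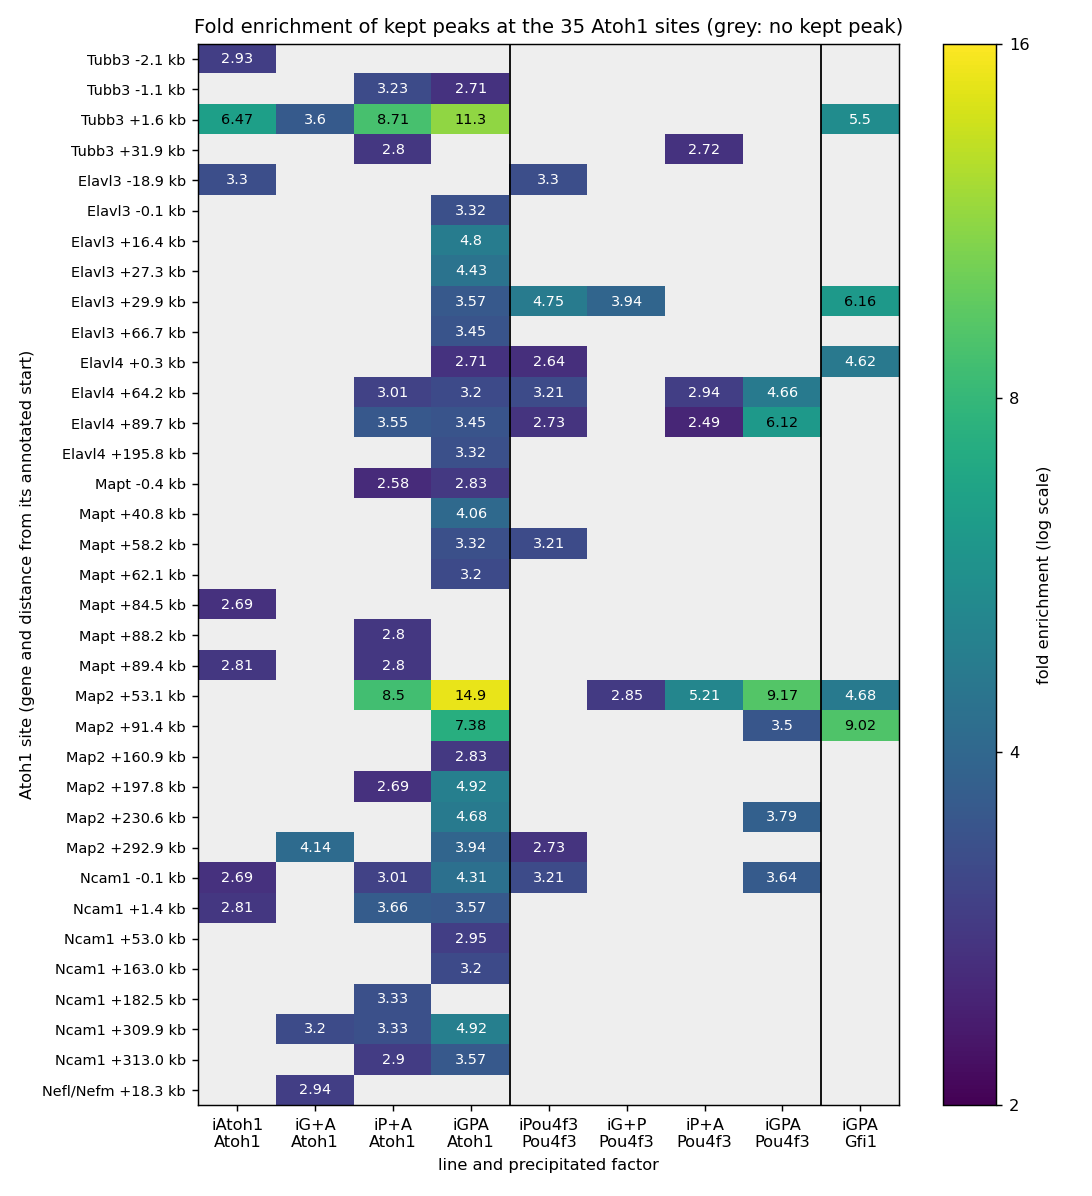
Fold enrichment of kept peaks (cell value, colour on a log scale) at the 35 Atoh1 sites near the genes (rows, named by gene and distance from its start) in the 9 lists (columns), with grey where no kept peak overlaps. The row of Tubb3 +1.6 kb is the 1 filled across all 4 Atoh1 columns, and 15 rows are filled in the iGPA Atoh1 column alone among those 4.

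Site by site, the lists that differ by Gfi1 only shared 1 of 10 Atoh1 sites near the genes without Pou4f3, with 6 in iAtoh1 alone and 3 in iG+A alone. The 2 lists thus had a share of 10.0% (0.253 to 44.5) in common, and over the genome the share was 28.9% for the same pair. With Pou4f3 present, iP+A and iGPA shared 11 of 31 sites, with 4 in iP+A alone and 16 in iGPA alone, a share of 35.5% (19.2 to 54.6) beside 31.9% over the genome. The 16 iP+A summits fell into 15 sites because Elavl4 +64.2 kb held 2 of them. Both intervals held the share over the genome. At a −log10 p of at least 10 the shares were 0% and 15.4%. Of the 11 shared sites, 8 had the higher fold enrichment in iGPA, and over the genome 76.4% of the sites shared by that pair did. The median ratio of iGPA to iP+A was 1.23 at the 11 sites and 1.26 over the genome.

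The lists that differ by Pou4f3 only gave a comparison within the same regions, and each of them is also in a Gfi1 pair. The Atoh1 lists of iAtoh1 and iP+A shared 4 of 19 sites, or 21.1% (6.05 to 45.6) beside 28.8% over the genome. Those of iG+A and iGPA shared 3 of 28, or 10.7% (2.27 to 28.2) beside 30.2%, with 24 sites in iGPA alone and 1 in iG+A alone. In that last pair the share over the genome lay above the interval, but with every called peak the pair shared 20% of 30 sites, since iG+A peaks that were called and not kept then counted.

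Of the 35 Atoh1 sites, 1 (2.86%) was in both lists with Gfi1 and neither without, against 6.69% of all Atoh1 sites, and 1 was the reverse, against 2.58%. For Pou4f3, 7 sites (20.0%) were in both lists with Pou4f3 and neither without, against 7.91% of all Atoh1 sites, and 0 were the reverse, against 2.41%. These were Map2 +53.1 kb, Map2 +197.8 kb, Mapt -0.4 kb, Elavl4 +89.7 kb, Elavl4 +64.2 kb, Tubb3 -1.1 kb and Ncam1 +313.0 kb. Of these, Map2 +53.1 kb, Elavl4 +89.7 kb and Elavl4 +64.2 kb overlapped a Pou4f3 peak. The others overlapped none in any Pou4f3 list, and Ncam1 +313.0 kb lies in an intron of Ttc12. A further 15 sites (42.9%) were in the iGPA list alone, against 21.0% of all sites. Among them, Elavl3 +29.9 kb had called Atoh1 peaks that were not kept in iG+A (3.07 fold) and iP+A (3.01). Elavl3 +27.3 kb (3.20) and Ncam1 +53.0 kb (2.94) had such peaks in iG+A. The iGPA list is also the longest Atoh1 list and left out the smallest share of its called peaks, 17.2%. Only 1 of the 35 (2.86%) was in all 4 lists, against 10.4%.

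Gfi1 had 5 summits near the genes, at Tubb3 +1.6 kb, Elavl3 +29.9 kb, the start of Elavl4, Map2 +53.1 kb and Map2 +91.4 kb. All 5 overlapped an Atoh1 peak of the same line (47.8% to 100%), against 43.4% of Gfi1 summits over the genome. At Elavl4 the summits lay apart, Gfi1 at +0.1 kb and Atoh1 at +0.3 kb, so that only parts of their windows overlapped. That Atoh1 peak was weak, at 2.71 fold and the 9.22nd percentile. No narrower window was tried for this overlap. Elavl3 +29.9 kb also held kept Pou4f3 peaks in iPou4f3 and iG+P, lines without Atoh1 in the cassette, and had no E-box core. Read from the other side, 5 of the 27 Atoh1 summits in iGPA, or 18.5% (6.30 to 38.1), overlapped a Gfi1 peak, against 5.09%. A Pou4f3 peak of iGPA overlapped 6 of those 27, or 22.2% (8.62 to 42.3), against 15.3%. In iP+A, 4 of 16 Atoh1 summits, or 25% (7.27 to 52.4), overlapped a Pou4f3 peak, against 23.2%. The Gfi1 list has a single library, so its peaks have no replicate behind them.

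Pou4f3 had summits near the genes in each line that carried it. They numbered 28 in iPou4f3 and 25 in iG+P, then 19 in iP+A and 26 in iGPA, which was 1.71, 1.05, 1.53 and 1.91 times the genome's density in that order. Per Mb this was 14.5 (9.63 to 20.9) in iPou4f3 beside 8.45, and 13.5 (8.79 to 19.7) in iGPA beside 7.06. In iG+P and iP+A the interval held the genome's density. Of the 42 Pou4f3 sites, 9, or 21.4%, were in all 4 Pou4f3 lists, against 14.5% of all Pou4f3 sites. The strongest lay in introns of Ncam1. Ncam1 +192.4 kb had a fold enrichment of 12.7 (10.4 to 15.4) in iPou4f3 and 10.4 (8.42 to 12.7) in iG+P, then 7.58 (5.89 to 9.62) in iP+A and 16.7 (13.8 to 20.1) in iGPA, at the 97.7th to 98.7th percentile. Ncam1 +264.6 kb had 11.3, 7.99, 5.09 and 12.5 in the same order, and Ncam1 +83.9 kb had 7.49, 8.32, 3.51 and 13.8. At all 3 sites iP+A had the lowest fold enrichment and iGPA the highest, but the median over the whole list was also highest in iGPA, at 4.08 beside 2.96 to 3.33, and iGPA did not have the highest percentile at any of the 3. None of the 3 held an Atoh1 or Gfi1 peak.

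The neurofilament genes were flanked by strong Pou4f3 sites. Nefl/Nefm -45.0 kb had 6.42 (4.84 to 8.36) in iPou4f3 and 6.68 (5.12 to 8.56) in iG+P, then 6.11 (4.61 to 7.96) in iP+A and 9.17 (7.07 to 11.7) in iGPA, and these intervals overlapped. On the other side, Nefm -33.2 kb had 6.78, 5.58, 4.30 and 8.30 in that order. Elavl4 +4.3 kb had 3.33, 4.82, 4.42 and 9.61 (7.45 to 12.2), and the last interval lay above the other 3. In rank within its own list the site stood at the 49.8th, 88.4th, 86.3rd and 92.1st percentile in that order.

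Within 250 bp around the summit, an E-box core stood at 31 of the 35 Atoh1 sites, or 88.6% (73.3 to 96.8), against 61.5% of all Atoh1 sites. In windows of that width 1000 bp further along, 11 of 35 held it. The 4 sites without it were Elavl4 +89.7 kb, Elavl4 +0.3 kb, Elavl3 +29.9 kb and Elavl3 -18.9 kb, the last in an intron of Zfp653. Each of the 4 overlapped a kept Pou4f3 peak, as did 8 of the other 31, and the share over all Atoh1 sites was not computed. Only at Elavl4 +89.7 kb did a line with the Atoh1 peak also hold the kept Pou4f3 peak. None of the 4 held the Pou4f pattern described below, so no link to Pou4f3 is read from this overlap. The extended E-box motif AtEAM, searched as 1 fixed pattern on both strands, was in 3 of 35 (8.57%) against 14.8% of all Atoh1 sites, and the Pou4f pattern in 2 of 35, or 5.71% (0.700 to 19.2), against 8.11% of all Atoh1 sites. Those 2 were Map2 +53.1 kb and Map2 +230.6 kb, which both held Pou4f3 peaks in iGPA. A Gfi1 pattern, AATCACTGC or AATCACAGC on either strand, was in 0 of the 35 Atoh1 sites, against 0.576% of all Atoh1 sites. It was in 0 of the 5 Gfi1 sites, against 7.01% of all Gfi1 sites. With so few sites, neither count is read as a lack of the pattern near these genes. Of the 42 Pou4f3 sites, 19 held the Pou4f pattern, or 45.2% (29.9 to 61.3), against 37.5% of all Pou4f3 sites, and 13, or 31.0% (17.6 to 47.1), an E-box core, against 26.4%.

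**Figure D5:**
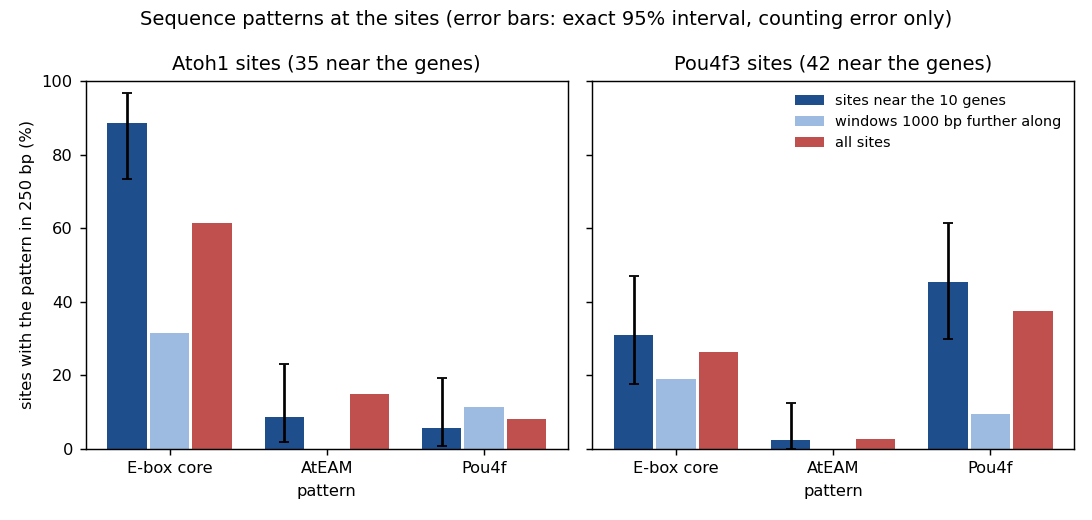
Share of sites with a sequence pattern within 250 bp (vertical axis, in percent) for 3 patterns, at Atoh1 sites (left) and Pou4f3 sites (right). Dark bars are sites near the 10 genes with exact 95% intervals, light bars windows 1000 bp further along, and red bars all sites of that factor. The dark bar for the E-box core at Atoh1 sites stands at 88.6% and the red bar at 61.5%.

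Most of these sites were not at promoters. Of the 35 Atoh1 sites, 26 were intronic, 6 intergenic and 3 in untranslated exons, and 9, or 25.7% (12.5 to 43.3), lay within 1 kb of a transcription start of any gene, against 23.9% of all Atoh1 sites. A start of a member gene was within 1 kb of 5 of them. Of the 42 Pou4f3 sites, 12, or 28.6% (15.7 to 44.6), lay within 1 kb of a start, against 22.2%.

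A second list of 25 neuronal genes was examined by the same rule. Of these, 19 had an Atoh1 summit in iAtoh1 and 22 in iG+A, then 23 in iP+A and 21 in iGPA, or 76%, 88%, 92% and 84% beside the shares of protein-coding genes given above. Their median body is 40.7 kb. The summits numbered 35 in iAtoh1 and 47 in iG+A, then 60 in iP+A and 84 in iGPA, or 1.05, 1.07, 1.48 and 1.49 times the genome's density. Per Mb this was 6.15 (4.29 to 8.56) in iAtoh1 and 8.26 (6.07 to 10.99) in iG+A, and both intervals held the genome's density. In iP+A it was 10.6 (8.05 to 13.6) beside 7.14, and in iGPA 14.8 (11.8 to 18.3) beside 9.88. Both of these intervals lay above the genome's density. Pou4f3 summits near the 25 genes stood at 1.12 times the genome's density in iPou4f3 and 0.858 in iG+P, then 0.847 in iP+A and 1.27 in iGPA. The interval held the genome's density in each of these Pou4f3 lists. The differences from the 10 genes were not tested. All 8 cytoskeletal genes, both RNA-binding genes, all 3 adhesion genes, all 7 genes of the mixed group and 4 of the 5 synaptic genes had an Atoh1 summit in at least 1 list, which 81.7% of protein-coding genes also had. The gene with the most Atoh1 sites was Rbfox3, the splicing regulator recognised by the NeuN antibody, with 17, followed by Eno2, the neuronal enolase, with 11. Cntn2, an axonal adhesion protein, had 9. Rbfox3 had 10 summits in iAtoh1 and 6 in iG+A, then 9 in iP+A and 15 in iGPA, and Eno2 had 1, 4, 4 and 6 in that order. Syp, the synaptic vesicle protein synaptophysin, had no Atoh1 summit and 1 Gfi1 summit. Gfi1 had a summit near 8 of the 25 genes, or 32%, beside 23.2% of protein-coding genes.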

How the data were processed

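Groups were taken from the sample titles. Following the study's methods section, the authors removed adapters (Trimmomatic), mapped the reads to mm9 using Bowtie 2 and dropped duplicates (Picard), reads of low mapping quality and regions on a blacklist. They called peaks by MACS 2, with ChIP replicates merged and inputs merged. Tool versions are not given in the sources used here. The deposited fold enrichment is a ratio, fragments at a summit over the peak caller's background, with the same constant added to each. The deposited −log10 p also comes from the peak caller. The −log10 q column was not used. The score column of the deposited summit lists has no stated definition and was not used for any result. Lists whose name gives 3 factors were taken as iGPA. A shallower list gives coarser fold enrichment and passes fewer weak sites.

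Summits were placed against the GENCODE vM1 annotation of NCBIM37, the assembly of mm9, and all peaks lay within its chromosome lengths. Map2 and Map1b, annotated there as Mtap2 and Mtap1b, were matched through RefSeq synonyms. Windows of 300 bp were joined at 1 bp of overlap, as in the study. Fragments under a peak were recovered by inverting fold enrichment and −log10 p (tolerance 0.001), and gave exact Poisson intervals, and shares have Clopper-Pearson intervals. With merged replicates, no test across samples was possible. Scripts ran in Python 3.11.15 with scipy 1.17.1 and pandas 2.3.3 and were tested on simulated data. Columns of other samples numbered 0. The text names all 10 genes, the Atoh1 sites in all 4 lists, those in both lists with Gfi1 or both without, those with a Gfi1 peak, the highest site per gene, and the other neuronal genes with most or no Atoh1 sites. Pou4f3 sites, the sites that set the lines with Pou4f3 apart and the sequences printed were picked after their values were seen. The members and lists were chosen with earlier results of these data known. Some items that these rules would name are not reported here. Alternatives were other distances, all called peaks, a stricter p-value, equal list length, assignment to the nearest start, other overlap windows and other pattern settings.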

Additional observations from a re-analysis of the deposited data

Results flagged for a closer look

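The difference between Atoh1 lists with and without Gfi1 went in opposite directions in the 2 backgrounds. Near the 10 genes, the iG+A count minus the iAtoh1 count was -3, whereas the iGPA count minus the iP+A count was 11. The difference between these differences was not tested, since no list has replicate values, and the first of them turned under 2 alternatives given with the processing.

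Outside the kept lists, 13 called peaks lay near the 10 genes and had been left out by the authors, 7 of them in Atoh1 lists, 5 in Pou4f3 lists and 1 in the Gfi1 list. Their highest fold enrichment was 3.74, of Gfi1 near Ncam1 in iGPA. They lay near Elavl3, Tubb3 and Ncam1, and no induced or uninduced control list was analysed here to set them against.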

How the results depend on the processing

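Of the alternative values computed, 113 stayed within the interval or within 1.5 times the reported value, 45 moved further and 2 changed sign, and the cause was not tested except where fewer peaks or narrower regions were admitted by construction. Within 100 kb, summits numbered 12 in iAtoh1, 13 in iG+A, 42 in iGPA (Atoh1), 41 in iG+P and 8 for Gfi1. The difference between iG+A and iAtoh1 then turned to 1, and that between iGPA and iP+A was 18. Within 10 kb, iG+A kept 2 summits at 2 genes, iPou4f3 18 summits, and Pou4f3 in iGPA 5 genes. In gene bodies alone, Atoh1 summits numbered 4 in iAtoh1, 2 in iG+A (2 genes) and 10 in iP+A. Pou4f3 summits there numbered 17 in iPou4f3 (5 genes) and 16 in iG+P (5 genes), then 11 in iP+A (4 genes), and Pou4f3 in iGPA had 4 genes. With all called peaks, iG+A had 8 summits and exceeded iAtoh1 by 1. At −log10 p of 10 or more, iAtoh1 and iG+A each had 1 Atoh1 summit at 1 gene, iP+A had 4 and iGPA 11. For Pou4f3 the stricter list left 10 in iPou4f3 and 11 in iG+P, then 7 in iP+A (5 genes) and 15 in iGPA (5 genes). The shared share became 0% for iAtoh1 with iG+A and 15.4% for iP+A with iGPA, and the differences 0 and 7. At equal list length, which could not be applied to the shorter Gfi1 list, iGPA had 17 Atoh1 summits, iG+P had 15 and iGPA exceeded iP+A by 4. Assigned to the nearest transcription start, iG+A had 2 summits and iGPA exceeded iP+A by 5. The E-box core within 100 bp was at 71.4% of sites, and the Pou4f pattern without a mismatch at 0%.

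No paired analysis was possible because the replicates were merged before peaks were called, and no replicate was left out in turn for the same reason. Read depth was not analysed here, and 13 called peaks near the genes were not kept, so the part of depth in sites missing from a list was not tested. The share of sites common to iG+A and iGPA was 10.7% as reported and 20% with all called peaks.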
